A study of Mus musculus with 5 samples.

Results

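The integrin and laminin subunit genes were measured by bulk RNA-seq in prostate tumor samples of TripleTg mice, 3 from castrated and 2 from intact animals. Genes of the count table were taken where the symbol is that of an integrin alpha or beta subunit or of a laminin alpha, beta or gamma chain, and 36 of 24527 genes are described. All animals carried the genotype hHGFtg:H11hMET/+:Ctnnb1 L(Ex3)/+:PB Cre4 on mixed C57BL/6 and C3H SCID backgrounds. In this model human HGF is expressed ubiquitously, and a Cre recombinase under the probasin promoter switches on human MET and a stabilized β-catenin in prostate epithelial cells. Castrated mice had been operated on at 4 months, and both groups were analyzed at 8 months of age. The labels number the samples of a group as replicates without stating that each came from its own mouse, so p-values measure the spread between these samples. Depth was 28015507, 18951782 and 20492061 counts for the castrated samples (replicates 1 to 3) and 21560355 and 22853501 counts for the intact samples (replicates 1 and 2). Values below follow that replicate order. CPM stands for counts relative to the library total after TMM scaling, which evens out differences in RNA composition.

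Integrins are receptors of the cell surface, each built of one alpha and one beta subunit, that tie the extracellular matrix or a neighboring cell to the actin or keratin skeleton. Laminins are secreted trimers of one alpha, one beta and one gamma chain and form the network of the basement membrane on which prostate glands rest. Which subunit a cell makes depends on its type, so the genes were grouped by the cells known for them, namely leukocytes, platelets, epithelium, stroma and vessels, or broad use. RNA was taken from whole tissue, in which fewer cells of a type and less RNA per cell cannot be told apart.

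Promoter sequences of 4 genes are shown first. Itgam and Itgax are neighbors on chromosome 7 and encode alpha subunits of myeloid cells, while Lama5 and Itgb5 had non-overlapping groups in opposite directions. The sequences are from RefSeq on build GRCm38.p6, run 5′ to 3′ on the strand of the gene, and cover 250 bases before and 50 bases from the annotated start.

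Itgam, chr7:128062390-128062689, plus strand, with capitals marking the PU.1 core GAGGAA on either strand, PU.1 being a transcription factor of myeloid cells:
Itgam: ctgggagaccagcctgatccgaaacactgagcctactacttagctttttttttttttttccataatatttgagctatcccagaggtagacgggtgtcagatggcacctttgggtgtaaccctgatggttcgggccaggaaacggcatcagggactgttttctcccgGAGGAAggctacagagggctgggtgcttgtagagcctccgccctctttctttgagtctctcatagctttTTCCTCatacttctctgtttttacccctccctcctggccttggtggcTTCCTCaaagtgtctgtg

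Itgax, chr7:128129300-128129599, plus strand, with capitals marking the AP-1 motif TGANTCA, which reads the same on both strands:
Itgax: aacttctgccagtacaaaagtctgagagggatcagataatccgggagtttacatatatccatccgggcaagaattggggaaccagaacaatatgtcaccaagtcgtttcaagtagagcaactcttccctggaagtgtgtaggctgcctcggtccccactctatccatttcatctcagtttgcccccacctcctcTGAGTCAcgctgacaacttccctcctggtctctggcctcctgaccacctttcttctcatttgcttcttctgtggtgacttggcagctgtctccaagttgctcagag

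Lama5, chr2:180225810-180226109, minus strand, and Itgb5, chr16:33829415-33829714, plus strand, with capitals marking the GC box GGGCGG, the motif of SP1, on either strand:
Lama5: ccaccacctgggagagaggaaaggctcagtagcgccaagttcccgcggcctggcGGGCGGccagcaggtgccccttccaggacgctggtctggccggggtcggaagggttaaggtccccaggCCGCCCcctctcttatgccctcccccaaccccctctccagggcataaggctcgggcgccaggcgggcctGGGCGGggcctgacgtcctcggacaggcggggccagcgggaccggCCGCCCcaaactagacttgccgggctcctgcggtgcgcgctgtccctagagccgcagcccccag
Itgb5: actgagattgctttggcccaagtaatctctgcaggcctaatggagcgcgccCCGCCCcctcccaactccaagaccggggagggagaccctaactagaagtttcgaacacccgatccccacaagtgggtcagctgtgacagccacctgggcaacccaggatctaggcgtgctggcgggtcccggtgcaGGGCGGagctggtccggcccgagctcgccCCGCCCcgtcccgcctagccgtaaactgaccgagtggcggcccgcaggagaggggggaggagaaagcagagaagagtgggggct

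The Itgam window held 3 matches to the PU.1 core and the Itgax window 0 of these and 1 match to the AP-1 motif. GC boxes numbered 4 in the Lama5 and 3 in the Itgb5 window. Outside the capitals, the Itgam window held 1 GC box and the Lama5 window 1 PU.1 core. An entry was found for 23 of the 36 genes, with 26 start sites in all. Among these windows 14 held the PU.1 core, 12 a GC box, 3 the AP-1 motif and 0 the TCF/LEF motif CTTTGAT, the last being the motif of factors that work with β-catenin. Over all 32851 promoters of the same length the shares were 28.3%, 35.7%, 7.81% and 3.73%. No factor binding was measured in these samples, and the matches are a description of the letters alone.

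Of the 36 genes, 34 had a CPM above 1 in at least 2 samples and were tested between castrated and intact samples. Itgad and Lamc3 did not pass. A call in edgeR's quasi-likelihood test required a log2 fold change beyond 1 in either direction with a p under 0.05 after Benjamini-Hochberg adjustment. None of the 34 was called, as was 0% of the 14612 genes tested, and their adjusted p in edgeR ran from 0.289 to 0.986. With the p left unadjusted and all else equal, 5 genes (14.7%) were higher in castrated samples, beside 7.66% of all genes, and 2 (5.88%) were lower, beside 3.26%. Every castrated sample lay above both intact samples for 5 genes (14.7%), beside 17% of all genes, and below both for 3 (8.82%), beside 16.1%. Thus the shares without overlap lay below those of all genes, and the unadjusted shares exceeded them by a few genes. The median log2 fold change, castrated over intact, was 0.30 over the 34 genes and -0.028 over all genes, and 21 of the 34 were positive. DESeq2 as an alternative called 4 of them, Itgb2, Itgb5, Lama2 and Lama5, beside 6.77% of all genes, and edgeR's likelihood ratio test called 0, beside 2.53%.

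**Figure D1:**
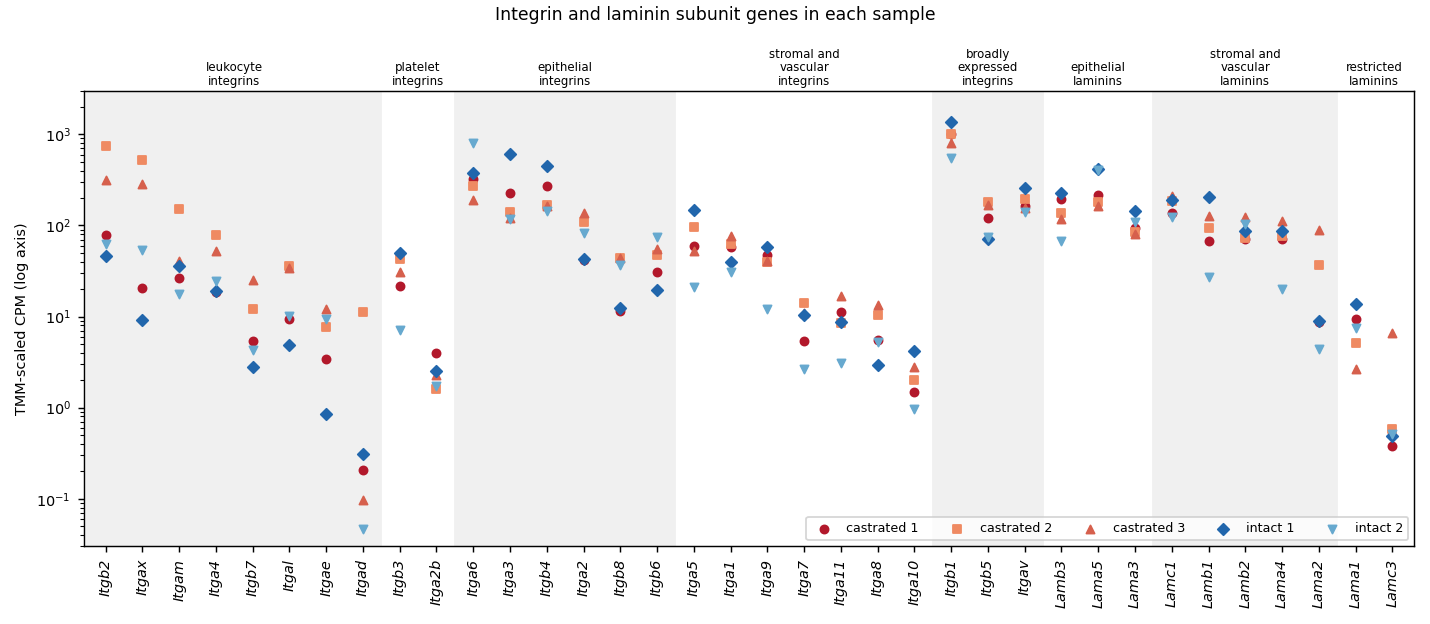
TMM-scaled CPM (log axis) of each integrin and laminin gene, grouped by class, with one point per sample. Itgb1 lay highest among the integrins in castrated samples, Itgb2 and Itgax reached 739.8 and 525 CPM in castrated replicate 2, and Itgad and Lamc3 stood above 1 CPM in a single castrated sample each.

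The 2 intact samples stood far apart from each other, and this bears on most results. Tgm4, a transglutaminase of prostate secretion, had a CPM of 1342 in intact replicate 2 and of at most 0.417 in the other samples. Pbsn, the gene of probasin, was at 0.452, 0 and 0.243 in castrated and 0 and 5.19 in intact samples, and Msmb was at 0 in every sample. Tgm4 and Pbsn were thus highest in intact replicate 2 and low in the other libraries. Whether intact replicate 2 held more normal prostate than the other samples is not in the labels and was not tested. Of the 34 tested genes, 21 were higher in intact replicate 1 than in intact replicate 2, beside 46% of all genes. For 11 genes all castrated samples fell between the intact samples, beside 17.3% of all genes. The largest ratios of intact replicate 1 to intact replicate 2 were 7.68 for Lamb1, 7.04 for Itga5, 7.02 for Itgb3 and 5.098 for Itga3, and the smallest were 0.0902 for Itgae and 0.169 for Itgax.

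Lama5 and Itgb5 were level between the intact samples, at ratios of 1.002 and 0.970. Adipocyte genes separated the castrated samples, with a summed CPM of 2.75, 323 and 363 in castrated and 0.134 and 0.185 in intact samples over 6 genes, and castrated replicate 1 lay nearest to the intact samples. Epithelial genes marked all 5 libraries, with a summed CPM of 3556, 3416 and 4119 in castrated and 5108 and 3363 in intact samples for Epcam, Cdh1, Krt8, Krt18 and Krt19, and the groups overlapped. Skeletal muscle genes, a sign of adjacent tissue, summed to at most 1.34 CPM, with Myh1 at 0.

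**Figure D2:**
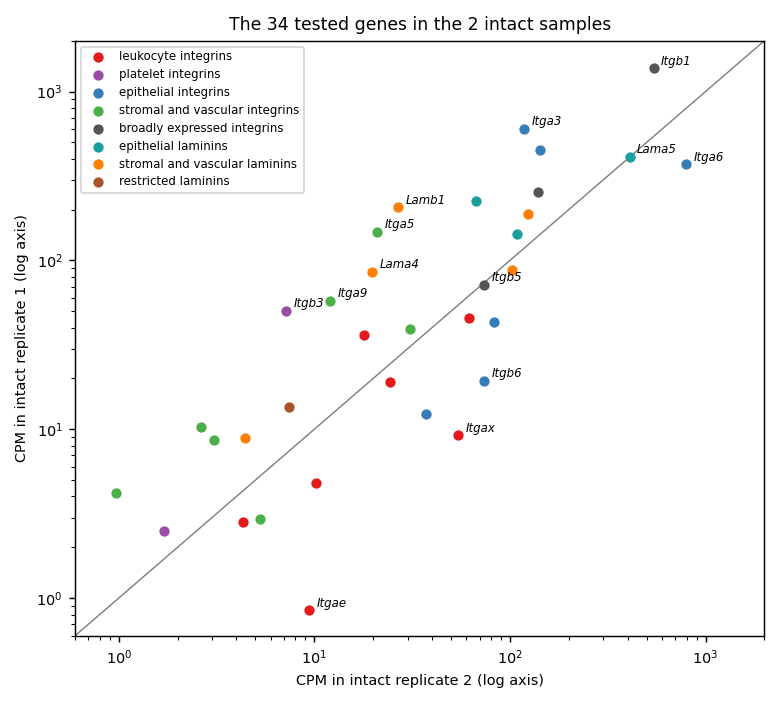
CPM in intact replicate 1 (vertical, log axis) against intact replicate 2 (horizontal, log axis) for the 34 tested genes, colored by class, with the line of equality. Lama5 and Itgb5 lay on the line, Lamb1, Itga5, Itgb3 and Itga3 far above it, and Itgae, Itgax, Itgb6 and Itga6 below it.

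Of the epithelial laminins, Lama5 and Lama3 were lower in every castrated sample, while Lamb3 was not. Lama5, on chromosome 2 from 180176373 to 180225859, encodes the alpha chain of the main laminins of mature epithelial and vascular basement membranes. Its CPM was 217, 183 and 165 in castrated and 411 and 411 in intact samples, with means of 188 ± 26.4 over the castrated (SD, n = 3) and 411 ± 0.464 over the intact samples (SD, n = 2). All castrated samples lay below both intact samples, by more than the spread within either group (log2 fold change -1.13, standard error 0.21, adjusted p = 0.289, edgeR's quasi-likelihood test). Its log2 fold change ran from -1.24 to -1.03 when single samples were left out. DESeq2 gave an adjusted p of 6.4e-05 for Lama5.

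Lama3 encodes the alpha chain that joins the Lamb3 product in the laminin under hemidesmosomes. The CPM of Lama3 was 94.4, 85.3 and 81.5 in castrated and 142 and 108 in intact samples, so that the castrated samples were again lower and the groups did not overlap (log2 fold change -0.53, standard error 0.20, adjusted p = 0.325, edgeR). Relative to the summed epithelial markers, Lama5 was at 0.0610, 0.0535 and 0.0401 in castrated and 0.0805 and 0.122 in intact samples, and here too no castrated sample reached an intact one. For Lama3 the same ratio was 0.0266, 0.0250 and 0.0198 in castrated and 0.0279 and 0.0322 in intact samples, with a narrow gap between the groups.

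Lamb3, the most abundant of these chains per length, did not share this pattern. Its CPM was 193, 138 and 116 in castrated and 225 and 67.5 in intact samples. Intact replicate 1 was the highest and intact replicate 2 the lowest sample, with all castrated samples in between (log2 fold change 0.03, standard error 0.53, adjusted p = 0.985, edgeR). Its log2 fold change ran from -0.59 to 1.17 with single samples left out, the upper value being that without intact replicate 1. Over these 3 epithelial laminins the median log2 fold change was -0.53 (-0.028 over all genes), with 2 genes below both intact samples (16.1% of all genes), and it ran from -0.71 to -0.30 over the fits without one sample.

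Among the stromal and vascular laminins Lama2 had the largest fold change, on overlapping groups. Lama2, on chromosome 10 from 26981285 to 27616942, encodes the alpha chain of the laminin around muscle and nerve fibers. It overlaps the antisense gene Gm48084 by 631 exon bases, and whether counting used the strand is not stated. The CPM of Lama2 was 8.66, 37.2 and 89.7 in castrated and 8.93 and 4.45 in intact samples. Castrated replicates 2 and 3 were far above the rest, while castrated replicate 1 lay just under intact replicate 1, so the groups overlapped (log2 fold change 2.75, standard error 1.03, adjusted p = 0.322, edgeR). The log2 fold change of Lama2 was 1.78 without castrated replicate 3 and 3.36 without intact replicate 1. The same castrated samples held the adipocyte genes given above. Smooth muscle genes summed to a CPM of 275, 513 and 481 in castrated and 147 and 92.7 in intact samples, higher in every castrated sample. The part of either list in the level of Lama2 was not tested. Fibroblast genes summed to 4311, 5396 and 7163 in castrated and 4122 and 2460.1 in intact samples, and the ratio of Lama2 to this sum was 0.00201, 0.00689 and 0.0125 in castrated and 0.00217 and 0.00181 in intact samples. Dcn made up 56.3% of the TPM of this fibroblast list. Log2 fold changes were 2.35 for Dcn, 2.23 for Lum and 1.52 for Pdgfra. Those of the collagen genes Col3a1, Col1a2 and Col1a1 were 0.092, 0.013 and -0.36. Schwann cell genes summed to 114, 145 and 138 in castrated and 124 and 288 in intact samples, with the highest value in intact replicate 2, where Lama2 was lowest.

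Lamc1, the gamma chain shared by most laminins, was the most abundant stromal and vascular laminin per length. Its CPM was 137, 187 and 209 in castrated and 188 and 124 in intact samples, with overlapping groups (log2 fold change 0.19, standard error 0.29, adjusted p = 0.784, edgeR). Lama4, the alpha chain of vessel and fat cell basement membranes, had a CPM of 71.3, 75.8 and 111 in castrated and 85.8 and 19.8 in intact samples (log2 fold change 0.70, standard error 0.62). Its log2 fold change was 0.0030 without intact replicate 2 and 2.13 without intact replicate 1. Lamb1, the beta chain of many laminins, had its highest and its lowest value in the intact samples (log2 fold change -0.28, standard error 0.81). Lamb2, the beta chain of muscle and kidney laminins, was highest in castrated replicate 3 and lowest in castrated replicate 1 (log2 fold change -0.099, standard error 0.30). The class median was 0.19, and 0 of 5 members lay wholly above or below the intact samples, beside 17% and 16.1% of all genes.

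Lama1, an alpha chain mostly of embryonic basement membranes, was low in every sample at a CPM of 9.28, 5.13 and 2.67 in castrated and 13.6 and 7.41 in intact samples, with overlapping groups (log2 fold change -0.88, standard error 0.61, adjusted p = 0.527, edgeR). Its log2 fold change ran from -1.44 to -0.36 with single samples left out. Lamc3, a gamma chain of few adult tissues, had 6.55 CPM in castrated replicate 3 and at most 0.589 elsewhere.

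The alpha chains were set against each other as shares of their summed TPM, the counts scaled to gene length and library total. Lama5 took 45.8%, 39.2% and 29.0% in castrated and 54.7% and 71.0% in intact samples, so the intact samples were both higher. Lama4 took 28.4%, 30.6% and 36.6% in castrated and 21.5% and 6.46% in intact samples, and Lama2 took 2.14%, 9.34% and 18.5% in castrated and 1.39% and 0.902% in intact samples. Both were above the intact samples in every castrated sample. Lama3 held a steady share, 21.4%, 19.6% and 15.3% in castrated and 20.3% and 20.1% in intact samples. These shares sum to a whole in each sample, so that a lower share of one chain raises the others. The alpha chains together summed to a TPM of 98.7, 98.0 and 117 in castrated and 165 and 95.1 in intact samples. No beta chain separated the groups by share. Lamb3 led the beta chains in every sample but intact replicate 2, where Lamb2 took 46.6%.

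**Figure D3:**
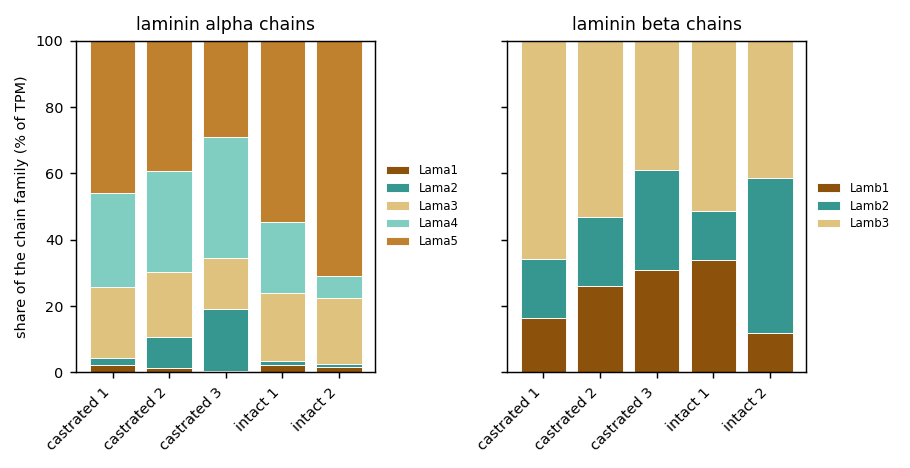
Share of each laminin chain in the summed TPM of its chain family (%), one bar per sample, for alpha and beta chains. Lama5 took 29.0% to 45.8% of alpha chain TPM in castrated samples against 54.7% and 71.0% in intact samples, while beta chains showed no such separation.

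Among the epithelial integrins Itga6, the laminin receptor subunit of basal epithelial cells, was lower in castrated samples. It lies on chromosome 2 from 71786939 to 71858427. The CPM of Itga6 was 323, 269 and 191 in castrated and 371 and 795 in intact samples. All castrated samples lay below both intact samples (log2 fold change -1.16, standard error 0.41, adjusted p = 0.316, edgeR), but intact replicate 2 was far above intact replicate 1, and its ratio to the summed epithelial markers overlapped between the groups. Basal epithelial genes were also uneven between the intact samples, with a summed CPM of 336, 375 and 885 in castrated and 89.1 and 731 in intact samples, and their part in the level of Itga6 was not tested. When intact replicate 2 was left out, its log2 fold change was -0.51.

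Itgb4, which pairs with the Itga6 product in hemidesmosomes, had a CPM of 273, 168 and 163 in castrated and 452 and 142 in intact samples (log2 fold change -0.56, standard error 0.53). The CPM ratio of Itga6 to Itgb4 was 1.18, 1.60 and 1.17 in castrated and 0.821 and 5.59 in intact samples, so intact replicate 2 alone had a large excess of Itga6. Itga3, another laminin receptor subunit, had a CPM of 229, 141 and 122 in castrated and 604 and 119 in intact samples, and the high value was that of intact replicate 1 (log2 fold change -1.14, standard error 0.68). The log2 fold change of Itga3 ran from -1.88 to 0.49 with single samples left out, so its sign turned. The 3 other epithelial subunits had log2 fold changes between -0.083 and 0.60 and overlapping groups. They were Itga2, a collagen receptor subunit, and Itgb6 and Itgb8, which pair with the Itgav product to activate TGF-β. Over the 6 genes the median was -0.32, and it turned to 0.035 without intact replicate 1 and 0.32 without intact replicate 2.

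Itgb5, the beta subunit of a vitronectin receptor that pairs with Itgav, was the integrin with the smallest p. It lies on chromosome 16 from 33829665 to 33949338. The CPM of Itgb5 was 121, 182 and 166 in castrated and 71.5 and 73.7 in intact samples, with means of 156 ± 32.0 over the castrated (SD, n = 3) and 72.6 ± 1.56 over the intact samples (SD, n = 2). Every castrated sample was above both intact samples, which were nearly equal (log2 fold change 1.11, standard error 0.24, adjusted p = 0.289, edgeR). Across the fits without one sample its log2 fold change ran from 0.99 to 1.26, and DESeq2 gave an adjusted p of 0.00541. Itgav itself had a CPM of 162, 195 and 155 in castrated and 254 and 139 in intact samples, with the castrated samples between the intact ones (log2 fold change -0.21, standard error 0.30). The ratio of Itgb5 to Itgav was accordingly 0.747, 0.937 and 1.07 in castrated and 0.281 and 0.530 in intact samples, higher in each castrated sample. Relative to the summed epithelial markers, Itgb5 was likewise above in each castrated sample, at 0.0340, 0.0534 and 0.0403 in castrated and 0.0140 and 0.0219 in intact samples. Smooth muscle and macrophage genes, whose sums are given with the stromal and leukocyte integrins, were also higher in every castrated sample. Per smooth muscle marker CPM, Itgb5 was at 0.439, 0.356 and 0.345 in castrated and 0.487 and 0.796 in intact samples, so the castrated samples were the lower ones, and per macrophage CPM it was at 0.112, 0.0677 and 0.121 in castrated and 0.124 and 0.114 in intact samples, with overlapping groups.

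Itgb1, the partner of most alpha subunits, was the most abundant integrin per length in castrated replicates 1 and 3 and in intact replicate 1. Itgb2 exceeded it in castrated replicate 2 and Itga6 slightly in intact replicate 2. The CPM of Itgb1 was 1015, 1012 and 797 in castrated and 1370.1 and 544 in intact samples. Both extremes were intact samples, and the group means were alike (log2 fold change -0.024, standard error 0.46, adjusted p = 0.986, edgeR). Itgb1 made up 66.3%, 39.4% and 45.8% in castrated and 71.8% and 57.5% in intact samples of the summed TPM of the 8 beta subunits.

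Of the 7 stromal and vascular integrins, Itga1 and Itga8 were higher in every castrated sample. Itga1, on chromosome 13 from 114958081 to 115101964, encodes a collagen receptor subunit of smooth muscle, fibroblasts and small vessels. Its CPM was 58.0, 62.3 and 76.9 in castrated and 39.4 and 30.7 in intact samples, with means of 65.7 ± 9.96 over the castrated (SD, n = 3) and 35.1 ± 6.17 over the intact samples (SD, n = 2). The groups did not overlap, and the gap between them was wider than the spread among intact samples but not than that among castrated samples (log2 fold change 0.91, standard error 0.23, adjusted p = 0.290, edgeR). In the GENCODE annotation Itga1 shares 685 exon bases on its own strand with the gene model Gm49395. Itga8, a subunit of mesenchymal and smooth muscle cells that binds nephronectin, had a CPM of 5.53, 10.4 and 13.5 in castrated and 2.95 and 5.28 in intact samples, also without overlap but with small counts (log2 fold change 1.25, standard error 0.54, adjusted p = 0.355, edgeR). It overlaps the antisense gene E030013I19Rik by 372 exon bases, and whether counting used the strand is not stated, so its count is uncertain.

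Smooth muscle genes were higher in the same samples, at a summed CPM of 275, 513 and 481 in castrated and 147 and 92.7 in intact samples over 6 genes, and 5 of the 6 lay above both intact samples, beside 17% of all genes. Acta2, the most abundant of them, was at 161, 302 and 219.8 in castrated and 76.8 and 57.3 in intact samples. Per smooth muscle marker CPM, Itga1 was at 0.211, 0.121 and 0.160 in castrated and 0.269 and 0.331 in intact samples, so that on this ratio the castrated samples were the lower ones. For Itga8 the ratio overlapped between the groups.

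Itga5, the fibronectin receptor subunit, was the most abundant of the class per length and had a CPM of 59.0, 95.9 and 52.2 in castrated and 148 and 21.0 in intact samples. Intact replicate 1 was the highest and intact replicate 2 the lowest sample (log2 fold change -0.29, standard error 0.78, adjusted p = 0.887, edgeR). Its log2 fold change ran from -1.10 to 1.74 with single samples left out, the upper value being that without intact replicate 1. The collagen receptor subunits Itga10 and Itga11, the muscle laminin receptor subunit Itga7 and the tenascin receptor subunit Itga9 had overlapping groups, with log2 fold changes from -0.31 to 1.06. The median of the class was 0.63, against 1.74 without intact replicate 1 and -0.035 without intact replicate 2. Endothelial genes, at a summed CPM of 426, 299.8 and 352 in castrated and 454 and 187 in intact samples, had the same low intact replicate 2, and their part was not tested. Of these 7 genes, 6 were positive (47.9% of all genes), and 3 lay above both intact samples in every castrated sample (17% of all genes). Cdh5, the 1 negative gene, was at a CPM of 226 in intact replicate 1 and 41.2 in intact replicate 2.

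**Figure D4:**
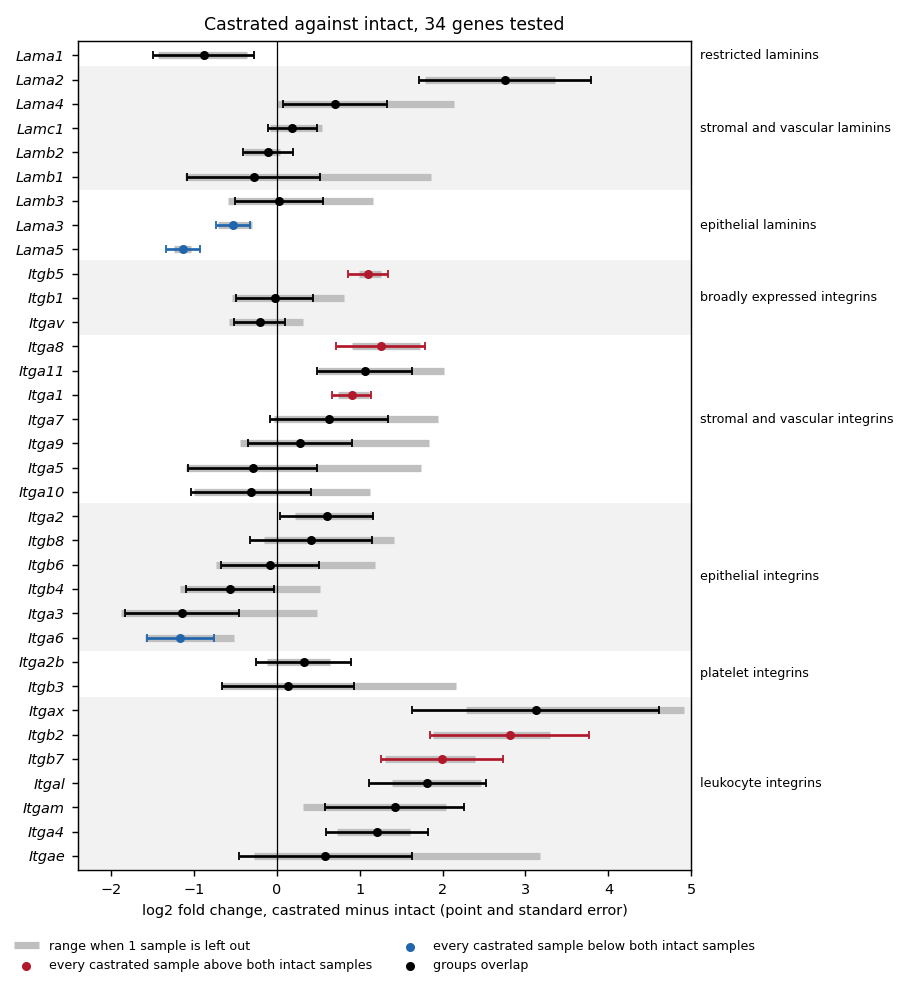
Log2 fold change, castrated over intact, of the 34 tested genes (points) with the standard error (bars) and the range when one sample is left out (grey). Colored points mark genes whose groups did not overlap, among which Lama5 and Itgb5 had the narrowest ranges, from -1.24 to -1.03 and from 0.99 to 1.26.

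The leukocyte integrins were higher in castrated samples on average and varied widely among them. Itgb2, on chromosome 10 from 77530370 to 77565708, encodes the beta subunit shared by the integrins that leukocytes use to adhere and to take up particles. Its CPM was 78.0, 739.8 and 317 in castrated and 45.9 and 62.0 in intact samples, with means of 378 ± 335 over the castrated (SD, n = 3) and 54.0 ± 11.4 over the intact samples (SD, n = 2). Every castrated sample was above both intact samples (log2 fold change 2.81, standard error 0.96, adjusted p = 0.309, edgeR). Castrated replicate 1 was nevertheless close to the intact samples, and castrated replicate 2 was far above it. Without castrated replicate 2 the log2 fold change was 1.88 for Itgb2, 2.29 for Itgax and 0.32 for Itgam, and without intact replicate 2 it was 4.91 for Itgax. Itgb2 thus took a share of beta subunit TPM of 7.29%, 41.3% and 26.1% in castrated and 3.44% and 9.38% in intact samples, and in castrated replicate 2 it passed Itgb1.

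The alpha partners of Itgb2 did not share one order of samples. Itgax, on chromosome 7 from 128129550 to 128150657, marks dendritic cells and tissue macrophages. Its CPM was 20.6, 525 and 285 in castrated and 9.20 and 54.3 in intact samples. Castrated replicates 2 and 3 were high, castrated replicate 1 was below intact replicate 2, and the groups overlapped (log2 fold change 3.12, standard error 1.49, adjusted p = 0.382, edgeR). Itgam, on chromosome 7 from 128062640 to 128118491, marks monocytes, macrophages and neutrophils. It had a CPM of 26.7, 150.1 and 40.97 in castrated and 36.3 and 17.9 in intact samples, with a single high value in castrated replicate 2 (log2 fold change 1.42, standard error 0.84), and it shares 3450 exon bases on its strand with the gene model Gm49368. The CPM ratio of Itgax to Itgam was 0.770, 3.50 and 6.95 in castrated and 0.253 and 3.04 in intact samples. Itgal, the lymphocyte partner that binds the Icam1 product, had a CPM of 9.42, 36.2 and 34.1 in castrated and 4.82 and 10.2 in intact samples, and the lowest castrated sample fell just under intact replicate 2 (log2 fold change 1.82, standard error 0.71, adjusted p = 0.332, edgeR). Itgad, a further myeloid partner, had 209 counts in castrated replicate 2 and between 1 and 7 in each other sample.

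Itgb7, which pairs with Itga4 for homing of lymphocytes and with Itgae for holding them in epithelium, had a CPM of 5.39, 12.1 and 25.1 in castrated and 2.81 and 4.31 in intact samples and did not overlap between the groups (log2 fold change 1.99, standard error 0.73, adjusted p = 0.320, edgeR). Its highest value was that of castrated replicate 3, not 2, and without castrated replicate 3 its log2 fold change was 1.30. Itga4 had a CPM of 18.7, 79.4 and 52.8 in castrated and 19.2 and 24.3 in intact samples, and its lowest value was a castrated one (log2 fold change 1.21, standard error 0.61). Itga4 overlaps Cerkl on the opposite strand by 1124 exon bases. Itgae had a CPM of 3.44, 7.59 and 12.0 in castrated and 0.848 and 9.40 in intact samples (log2 fold change 0.58, standard error 1.04), and intact replicate 1 stood out as low.

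Over the 7 tested leukocyte subunits the median log2 fold change was 1.82 (-0.028 over all genes), all 7 were positive (47.9% of all genes), 3 had an unadjusted p under 0.05 with a log2 fold change above 1 (7.66% of all genes), and 2 lay above both intact samples in every castrated sample (17% of all genes). The median ran from 1.55 to 2.46 with single samples left out. Leaving out castrated replicate 2 brought the count of higher genes over all 34 from 5 to 0, beside 4.5% of all genes. Summed CPM of 6 pan-leukocyte genes was 599.8, 2132 and 1242 in castrated and 282 and 598 in intact samples, with Lcp1 the highest in every sample, so the 2 castrated samples with the most Itgb2 also had the most leukocyte RNA. Macrophage genes summed to 1075, 2694 and 1375 in castrated and 576 and 649 in intact samples, with Cd68 the highest in castrated replicates 2 and 3 and C1qa most abundant per length, and 8 of 9 lay above both intact samples, beside 17% of all genes. These sums were 9.21, 58.0 and 67.9 in castrated and 0.982 and 3.71 in intact samples for B cell genes. T and NK cell genes gave 13.4, 46.6 and 43.5 in castrated and 3.48 and 37.8 in intact samples, so intact replicate 2 reached the castrated range. Neutrophil genes gave 156, 148 and 97.2 in castrated and 81.7 and 114 in intact samples, with overlapping groups. The summed leukocyte integrins per pan-leukocyte CPM came to 0.271, 0.732 and 0.617 in castrated and 0.423 and 0.305 in intact samples, and that ratio overlapped between the groups, as it did for each of Itgb2, Itgax, Itgam, Itgal, Itgb7 and Itga4. Per macrophage CPM, Itgax was at 0.0191, 0.195 and 0.207 in castrated and 0.0160 and 0.0837 in intact samples.

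**Figure D5:**
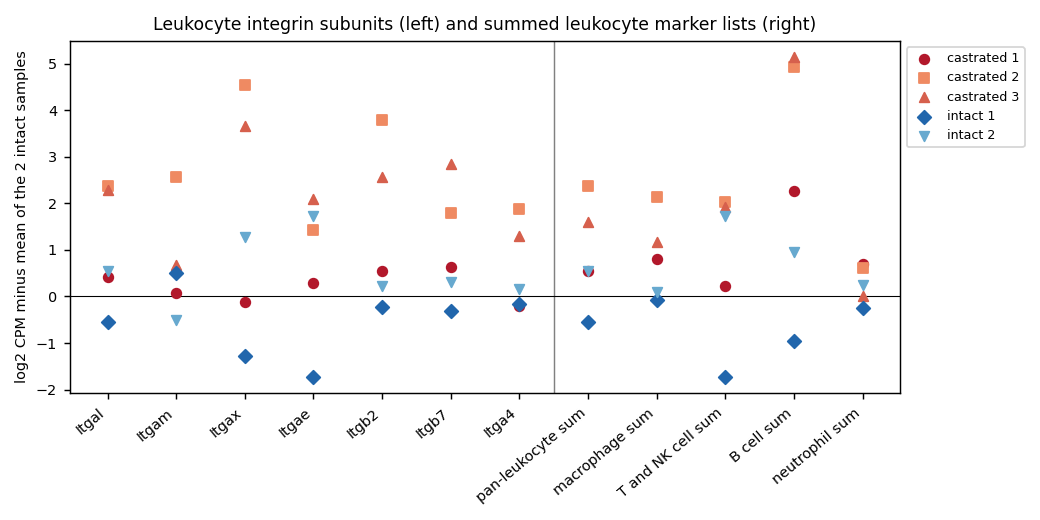
Log2 CPM relative to the mean of the 2 intact samples for the 7 tested leukocyte integrin subunits (left) and for the summed CPM of 5 leukocyte marker lists (right), one point per sample. Castrated replicates 2 and 3 lay highest for Itgb2, Itgax, Itgal and Itga4 and for the pan-leukocyte, macrophage and B cell sums, and castrated replicate 1 lay close to the intact samples for most.

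The platelet integrin subunits showed no separation. Itgb3, which pairs with Itga2b on platelets and with Itgav on vessels and osteoclasts, had a CPM of 21.6, 42.4 and 31.0 in castrated and 50.4 and 7.18 in intact samples, with both extremes among the intact samples (log2 fold change 0.14, standard error 0.80, adjusted p = 0.9496, edgeR). Itga2b had a CPM of 3.998, 1.60 and 2.28 in castrated and 2.50 and 1.71 in intact samples (log2 fold change 0.32, standard error 0.57). The platelet marker list summed to a CPM of 59.1, 90.2 and 20.7 in castrated and 8.62 and 6.44 in intact samples, and the chemokine gene Pf4 made up 92% of its TPM, while Gp9, Gp6, Gp1ba and Gp1bb did not pass the filter.

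Genes that work with integrins and laminins were counted from lists chosen for their roles. Of 23 integrin activators and focal adhesion genes, 18 were positive (47.9% of all genes), 2 had an unadjusted p under 0.05 with a log2 fold change above 1 (7.66% of all genes), 0 were lower by the same rule (3.26%), and 9 lay above and 2 below both intact samples, beside 17% and 16.1% of all genes. Their median log2 fold change was 0.34. Apbb1ip, an adaptor that brings talin to integrins in blood cells, had a CPM of 38.6, 94.9 and 58.7 in castrated and 22.3 and 18.7 in intact samples, higher in each castrated sample (log2 fold change 1.65, standard error 0.43, adjusted p = 0.290, edgeR). Fermt3, the kindlin of blood cells, had a CPM of 25.7, 78.9 and 37.3 in castrated and 21.7 and 16.3 in intact samples with the same order of groups (log2 fold change 1.31, standard error 0.53, adjusted p = 0.342, edgeR). Lims2, a scaffold of the complex around integrin-linked kinase, had a CPM of 5.74, 13.3 and 16.7 in castrated and 2.23 and 0.556 in intact samples and did not overlap either (log2 fold change 3.08, standard error 0.83, adjusted p = 0.290, edgeR). Tln1, the talin that activates integrins in most cells, had a CPM of 196, 350.4 and 305 in castrated and 158 and 179 in intact samples (log2 fold change 0.75, standard error 0.30). Ilk, the integrin-linked kinase and the most abundant of the list per length, was even across samples, with a CPM of 162, 144 and 139 in castrated and 151 and 142 in intact samples.

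None of the 4 hemidesmosome genes was higher or lower by the unadjusted rule, beside 7.66% and 3.26% of all genes, and so few genes give no reading against these shares. Plec, the plectin that ties Itgb4 to keratin, had a CPM of 221, 252 and 265 in castrated and 345 and 290.3 in intact samples, lower in each castrated sample (log2 fold change -0.37, standard error 0.20, adjusted p = 0.439, edgeR). Cd151, Col17a1 and Dst overlapped between the groups, with log2 fold changes from 0.014 to 0.61.

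Of 16 basement membrane partners and other laminin receptors, 11 were positive (47.9% of all genes), with a median of 0.27, 1 was higher and 0 lower by the unadjusted rule (7.66% and 3.26% of all genes), and 2 lay above and 2 below both intact samples (17% and 16.1% of all genes). Sgcb, a sarcoglycan of the dystroglycan complex, had a CPM of 22.6, 31.6 and 28.01 in castrated and 16.1 and 9.40 in intact samples (log2 fold change 1.10, standard error 0.34, adjusted p = 0.300, edgeR). Col7a1, the anchoring fibril collagen beneath the Lama3 laminin, had a CPM of 10.7, 12.1 and 19.5 in castrated and 25.2 and 24.9 in intact samples, lower in each castrated sample (log2 fold change -0.83, standard error 0.34, adjusted p = 0.343, edgeR). Nid1, which links laminin to collagen, overlapped (log2 fold change 0.86, standard error 0.49), as did Bcam, a receptor for the Lama5 laminins and the most abundant of the list per length (log2 fold change 0.14, standard error 0.41). Col4a4, low throughout, had a CPM of 1.113, 3.90 and 6.80 in castrated and 1.03 and 1.112 in intact samples (log2 fold change 1.87, standard error 0.85, adjusted p = 0.369, edgeR). Its groups did not overlap, but castrated replicate 1 was practically level with intact replicate 2.

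Of the other integrin ligands, 16 were tested and 10 were positive (47.9% of all genes), with a median of 0.52, and 2 were higher and 0 lower by the unadjusted rule. Of all genes tested, 7.66% were higher and 3.26% lower by that rule. Spp1, osteopontin, a ligand of integrins with the Itgav or Itga4 product, had a CPM of 456, 8544 and 1345 in castrated and 548 and 395 in intact samples, where castrated replicate 2 stood far above the rest and the groups overlapped (log2 fold change 2.87, standard error 1.38, adjusted p = 0.385, edgeR). Vtn, vitronectin, the ligand of the Itgav and Itgb5 pair, had a CPM of 1.495, 2.24 and 281 in castrated and 0.402 and 0.371 in intact samples, so its large fold change rested on castrated replicate 3 (log2 fold change 7.92, standard error 3.11, adjusted p = 0.332, edgeR). Emilin1, a ligand of Itga4 and Itga9 integrins, had a CPM of 41.3, 41.3 and 56.5 in castrated and 29.5 and 12.7 in intact samples, above in each castrated sample (log2 fold change 1.14, standard error 0.42, adjusted p = 0.321, edgeR). Icam1, the ligand of the Itgal and Itgb2 pair, had a CPM of 34.9, 102 and 101 in castrated and 28.3 and 36.5 in intact samples, with castrated replicates 2 and 3 high and castrated replicate 1 within the intact range (log2 fold change 1.29, standard error 0.52, adjusted p = 0.337, edgeR). Its relative Icam2 had a CPM of 4.45, 2.24 and 4.37 in castrated and 1.70 and 1.57 in intact samples, low throughout but without overlap (log2 fold change 1.17, standard error 0.51, adjusted p = 0.356, edgeR).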

How the data were processed

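RNA of 3 prostate tumor samples from castrated and 2 from intact TripleTg mice was depleted of ribosomal RNA and sequenced. The authors trimmed reads (Trimmomatic 0.39), aligned them to mm10 (STAR 2.7.9) and deposited raw HTSeq 2.0.2 counts per gene with gene length and coordinates. The strand setting and annotation release are not given in the sources used here. Replicates differed beyond sampling noise, with a chi-square per gene of 140 or more. Total counts ran from 18951782 to 28015507, and the common dispersion was 0.238, so differences between samples rather than counting set the precision of all but low genes.

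The filter (CPM above 1 in 2 or more samples), TMM scaling and edgeR's quasi-likelihood test followed the study's methods, which however name TPM as input. edgeR 4.0.16 ran in R 4.3.3, with Benjamini-Hochberg adjustment over all genes. A call needed an adjusted p under 0.05 and a log2 fold change beyond 1 either way. The standard error of a log2 fold change is its size over the root of F. TPM used the deposited lengths. Procedures were tested on simulated data. Alternatives were DESeq2 1.42.0, edgeR's likelihood ratio test, other filters and scalings, limma 3.58.1 on log2(TPM + 1), a replicate block, leaving out each sample and, added after seeing the data, the older quasi-likelihood fit of edgeR.

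The genes, classes and marker lists were chosen with earlier results of these data known. Per class, values in every sample are given for the most abundant gene per length, genes whose groups did not overlap and genes with an unadjusted p under 0.05. Per context list, the most abundant gene and up to 4 genes with the smallest p are named. Other genes named with values were chosen after their values were seen. Exon overlaps are from GENCODE on the same build. Of the genes that met the rule 1, and of the marker genes 1, are not reported here. Single-cell and qRT-PCR experiments were not analysed here.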

Additional observations from a re-analysis of the deposited data

How the results depend on the processing

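Of the 34 tested genes, 17 kept the sign of their log2 fold change in all 14 other settings and 17 did not. The count called was 0 in each of these settings except DESeq2, where it was 4. With DESeq2 the adjusted p was 0.0243 for Itgb2, 0.00541 for Itgb5, 0.0497 for Lama2 and 6.4e-05 for Lama5. With limma on log2(TPM + 1), 3 genes were higher and 0 lower at the unadjusted p, the median of the epithelial integrins became 0.021, and the log2 fold change became 0.35 for Itga5, 0.25 for Itgb1, 0.28 for Itgb6 and 0.40 for Lamb1. With CPM above 1 required in all 5 samples, Itgb1 became 0.00723.

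Same-numbered samples come from a castrated and an intact animal, and the labels state no pairing between them. The deviations from group means correlated at 0.165 for replicate 1 and -0.037 for replicate 2. With 2 intact samples their deviations mirror each other, so these correlations cannot decide whether the numbers pair samples. With the replicate block, 3 genes were higher and 1 lower at the unadjusted p. Itgal, Itgax and Itgb5 were higher, and Lama5 was lower. Log2 fold changes became 0.43 for Itga5, 0.23 for Itgb1, 0.000829 for Itgb6 and 0.086 for Lamb1. Lama2, Itgb7 and Itgb2 became 1.504, 1.22 and 2.17, with an unadjusted p in edgeR of 0.196, 0.0801 and 0.0688. Itga6 became -0.88 (unadjusted p = 0.151, edgeR). Itgax, which was not among the higher genes without the block, became 2.22 (unadjusted p = 0.0295, edgeR).

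Leaving out one sample at a time, 0 to 10 genes were higher and 1 to 5 lower at the unadjusted p, 5 to 21 lay above and 3 to 14 below all intact samples, and 0 were called. Over all genes the same shares ran from 4.09% to 11% higher, 1.72% to 6.79% lower, 19.2% to 36.4% above and 18.5% to 35.6% below. Without castrated replicate 2, 0 were higher, and without intact replicate 1, 10 were. Medians ran from -0.36 to 0.32 for epithelial integrins, from -0.035 to 1.74 for stromal and vascular integrins, from -0.71 to -0.30 for epithelial laminins, from 1.55 to 2.46 for leukocyte integrins and from 0.0030 to 1.86 for stromal and vascular laminins. Log2 fold changes that crossed 0 ran from -1.001 to 1.12 for Itga10, from -0.12 to 0.64 for Itga2b, from -1.88 to 0.49 for Itga3, from -1.10 to 1.74 for Itga5, from -0.035 to 1.94 for Itga7, from -0.44 to 1.83 for Itga9, from -0.27 to 3.17 for Itgae, from -0.58 to 0.31 for Itgav, from -0.54 to 0.81 for Itgb1, from -0.67 to 2.16 for Itgb3, from -1.17 to 0.52 for Itgb4, from -0.73 to 1.19 for Itgb6, from -0.15 to 1.42 for Itgb8, from -1.10 to 1.86 for Lamb1, from -0.39 to 0.039 for Lamb2, from -0.59 to 1.17 for Lamb3 and from -0.079 to 0.54 for Lamc1. Without crossing 0, they ran from 1.78 to 3.36 for Lama2, from 1.30 to 2.39 for Itgb7, from 1.39 to 2.46 for Itgal, from 0.73 to 1.61 for Itga4, from 0.91 to 1.73 for Itga8, from 0.50 to 2.01 for Itga11 and from 0.22 to 1.15 for Itga2. The cause of these changes was not tested. A fit without one intact sample assumes that the lone intact sample varies like the castrated ones. Itgad and Lamc3 failed the filter because each exceeded a CPM of 1 in a single castrated sample, with counts down to 1 and 11 in other samples.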
